A study of Saccharomyces cerevisiae with 36 samples.

Results

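The 36 genes described here act in meiotic recombination and in sporulation of budding yeast, and they are 36 of the 5798 genes measured in the series. They were chosen by name from what they are known to do, not from measured values, and the regulators of meiotic entry were kept apart. Earlier results of these data were known when the choice was made. The series asked how RNA decay enzymes, and nonsense-mediated decay (NMD) among them, shape the transcriptome of Saccharomyces cerevisiae. NMD degrades RNAs on which translation stops at an unusual place, and Upf1, the product of NAM7, is its central helicase.

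Strand-specific RNA-seq was available for 24 rRNA-depleted libraries in 12 groups of 2. In the S288C background these were upf1Δ cells (YAM202) with their own wild type (YAM1, called WT_UPF1), and the decapping mutant dcp2-7 (YAM2283) with wild type YAM1, both labelled 37C. They also were xrn1Δ cells (YAM6) with wild type YAM1. Xrn1 is the cytoplasmic exonuclease that degrades decapped RNA from its front end. Further xrn1Δ strains were YAM97 against YAM92 in W303, YAM2087 against YAM1977 in haploid SK1, and the homozygous xrn1Δ/xrn1Δ strain YAM2068 against YAM2067 in diploid SK1 (SK1_2n). Another 8 libraries came from RNA of the xrn1Δ, dcp2-7 and matching wild-type S288C cells digested with Terminator, an exonuclease that removes RNAs with a 5'-monophosphate and spares capped ones. CAGE, which maps capped ends, was done on 4 cultures, dcp2-7 and wild type after 2 h at 37 °C. No sporulation medium or other step to start meiosis is named in the labels, so the genes were read in cells not labelled as meiotic. Each strain is a single isolate as far as the labels say, and no label says that RNA-seq replicates were separate cultures, so p-values measure the spread between these libraries, which may be technical.

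In meiosis chromosomes are cut by Spo11 and its partners, paired along a protein axis and joined by the synaptonemal complex, and repaired by Dmc1 with its helpers into crossovers, after which spores are packaged. During mitotic growth many of the early genes among these are kept silent by Ume6, a repressor that binds the URS1 element. The mid-sporulation genes are switched on later by Ndt80, which binds the MSE element. Several of the genes carry introns that are spliced efficiently only in meiosis, some of them with the help of Mer1, and an RNA that keeps an intron is a typical NMD substrate.

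By role, 5 of the genes form the double-strand breaks, MEI4 (YER044C-A), REC102 (YLR329W), REC104 (YHR157W), REC114 (YMR133W) and SPO11 (YHL022C). The 7 genes of the chromosome axis, cohesion and synapsis are HOP1 (YIL072W), MEK1 (YOR351C), REC8 (YPR007C), RED1 (YLR263W), SPO22 (YIL073C), ZIP1 (YDR285W) and ZIP2 (YGL249W). Strand exchange and crossing over have 8, DMC1 (YER179W), HFM1 (YGL251C), HOP2 (YGL033W), MEI5 (YPL121C), MND1 (YGL183C), MSH4 (YFL003C), MSH5 (YDL154W) and SAE3 (YHR079C-A). A splicing factor and 2 controls of division make 3, AMA1 (YGR225W), MER1 (YNL210W) and SPO13 (YHR014W). The other 13 form spores, DIT1 (YDR403W), DIT2 (YDR402C), SMK1 (YPR054W), SPO19 (YPL130W), SPO21 (YOL091W), SPO24 (YPR036W-A), SPO74 (YGL170C), SPO77 (YLR341W), SPR3 (YGR059W), SPS1 (YDR523C), SPS2 (YDR522C), SPS4 (YOR313C) and SSP1 (YHR184W).

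The URS1 core GGCGGC was searched on both strands from 250 bases before to 50 bases after the start codon, in the RefSeq sequence of build R64. It was present at 15 of 36 genes (41.67%), against 300 of 5768 genes (5.201%) over all. By role it was found at 3 of 5 break-forming genes, 5 of 7 axis and synapsis genes, 4 of 8 strand exchange genes, 2 of 3 splicing and division genes, and 1 of 13 spore formation genes, the protein kinase gene SMK1. The longer form TCGGCGGCT, which contains the core, occurred at 6 genes (16.67%), against 0.6068% of all genes. The 6 windows of 30 bases below, with the core in capitals, belong to genes whose RNA levels are followed through the conditions.
REC104, chr8:412804-412833, plus strand: cgcacaatatttGGCGGCtattttccgcta
MEI4, chr5:239853-239882, minus strand: tatatattgctgGGCGGCtaaatgtttccg
HOP1, chr9:226419-226448, plus strand: gtttttaacctgGGCGGCtaaattgtactt
SPO22, chr9:226061-226090, minus strand: aatacaaacttcGGCGGCtaattgcaaata
ZIP1, chr4:1032404-1032433, plus strand: taaaataccctcGGCGGCtaaatttttaga
HOP2, chr7:435484-435513, plus strand: gattatgtcctcGGCGGCtaaattttccat
The cores begin 91 bases before the start codon in REC104, 96 in MEI4, 171 in HOP1, 124 in SPO22, 20 in ZIP1 and 129 in HOP2.

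The MSE-like string CACAAA was present at 12 of 36 genes, against 19.05% of all genes, and 10 of these 12 are spore formation genes (10 of 13). The longer GNCACAAA, which contains it, was found at 8 genes, all 8 in spore formation, against 4.352% of all genes. These windows show the string in capitals for the meiotic plaque gene SPO21, for SPO77 and SPS4, and the shorter form in SPO24, the most abundant of the 36. The SPO24 string begins 32 bases before the start codon. It lies downstream of the capped ends mapped at SPO24, 75 and 72 bases before the start codon, and so within the transcribed part.
SPO21, chr15:145205-145234, plus strand: atttttttaatGTCACAAAaagaaaaatta
SPO77, chr12:807222-807251, plus strand: atataagaaatGTCACAAAatcaaaaatag
SPS4, chr15:903048-903077, minus strand: gattgacgcgcGCCACAAAaacgtatcatt
SPO24, chr16:645906-645935, plus strand: actgacaactcaCACAAAtaacacaaaaaa
A match of letters is a description and shows no bound factor.

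An intron is annotated in 10 of 36 genes (27.8%), against 285 of 5788 genes (4.92%). HOP2 has 2 of the 11 introns. The usual first bases of a yeast intron, GTATGT, begin 6 of the 11. The windows below show the junction, with the first 6 intron bases in capitals, for the recombination helicase gene HFM1, SPO22 and AMA1, which depart from it, and for DMC1, which does not.
HFM1, chr7:31559-31588, minus strand: tctccaaataGTAGTAacgaagcttagcaa
SPO22, chr9:225880-225909, minus strand: gagttatgcgGTATATaacaaaatgcaaaa
AMA1, chr7:946318-946347, plus strand: caagtctgtgGTACGTtattaagagcttat
DMC1, chr5:548543-548572, plus strand: cacagtcaatGTATGTtataataacatttt
The string ACCCT, the core of the element through which Mer1 acts, lies inside the introns of HFM1, SPO22, AMA1 and MND1. It begins at intron base 22 in HFM1, 24 in SPO22 and 31 in AMA1, and at base 65 of 83 in MND1. How often this short string occurs in other introns was not counted, and a match does not make a gene a Mer1 target. The tables give 1 value per gene, so spliced and unspliced RNA were not separated.

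The targeted genes matched the labels where they could be read. XRN1 lay between 0 and 0.00399 in the xrn1Δ libraries, against 0.334 to 1.62 in their wild types. NAM7 was at 0.000869 and 0.00151 in upf1Δ cells, against 0.589 and 0.581 in WT_UPF1. A level of DCP2 cannot check the dcp2-7 allele, and it was 0.553 and 0.506 in dcp2-7 cells against 0.289 and 0.373 in wild type at 37 °C. All levels here are densities: the reads on a gene are divided by its length and multiplied by a factor, 1 per library, that sets the snoRNA total equal. Levels of different genes are therefore compared per length. The libraries held 11021562 to 68466587 reads on annotated features when rRNA-depleted and 13208233 to 23350952 after Terminator. In bulk RNA, fewer cells expressing a gene and less RNA per cell cannot be told apart.

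Cell-type markers bear on the SK1_2n libraries. Diploid cells shut off alpha-type genes (4 listed), and their summed density was 2.41 and 1.17 in xrn1Δ SK1_2n against 35.1 and 34.6 in xrn1Δ SK1. In wild-type SK1_2n it was 3.05 and 7.39, against 21.4 and 20.1 in wild-type SK1, so the labelled diploid wild type still held these RNAs, replicate 2 more than replicate 1. The 7 haploid-specific genes showed the same order, with 0.184 and 0.589 in wild-type SK1_2n and 3.03 and 2.75 in wild-type SK1. The median of all genes was also lower in wild-type SK1_2n, 0.0801 against 0.239 in wild-type SK1. These sums therefore do not show by themselves how far such genes were shut off in wild-type SK1_2n. IME4, a gene of meiotic entry normally on in diploids, was at 0.444 and 0.436 in xrn1Δ SK1_2n and at 0.0167 and 0.00709 in wild-type SK1_2n. The 4 listed entry genes IME1, IME2, NDT80 and IME4 summed to between 0.0145 and 0.714 over all 24 libraries. Their sum moved with the mutants, and its part in the members' values was not tested. It was 0.214 and 0.229 in upf1Δ cells against 0.0355 and 0.0423 in WT_UPF1, and 0.198 and 0.167 in dcp2-7 cells against 0.0507 and 0.0651 in wild type at 37 °C. In xrn1Δ S288C cells it was 0.401 and 0.390, against 0.0493 and 0.0396 in wild type, and over the other 3 backgrounds it was 0.260 to 0.714 in xrn1Δ against 0.0145 to 0.0319 in wild types. Most of the upf1Δ sum was IME2, a kinase of meiotic entry, with 0.200 and 0.215 in upf1Δ cells against 0.0264 and 0.0328 in WT_UPF1. NDT80 had 0.00773 and 0.0114 in upf1Δ cells, against 0.00760 and 0.00658 in WT_UPF1. IME2 was also most of the xrn1Δ S288C sum, with 0.355 and 0.348, in a comparison where 94.8% of all mRNAs were higher. In xrn1Δ SK1_2n most of the sum was IME4 and IME2. The sum therefore does not show that the 4 genes rose as a group.

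The genes were low everywhere. The median of their mean densities over the 24 rRNA-depleted libraries was 0.0200, against 0.488 for all genes, and 35 of 36 lay below the gene median. SPO24, a very short sporulation gene, was the exception with a mean of 10.9, followed by the break-forming gene REC104 (0.123) and the crossover gene MSH5 (0.123). At the other end were SAE3 and MEI5, whose products load Dmc1 together, and the spore wall gene SPS2. MEI5 and SPS2 did not reach the minimum level for testing, so 34 of 36 genes were tested in rRNA-depleted libraries, and 33 in the Terminator model, where MER1 was left out too. MEI5 held between 0 and 9 reads in any library, so no statement is made on it.

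**Figure D1:**
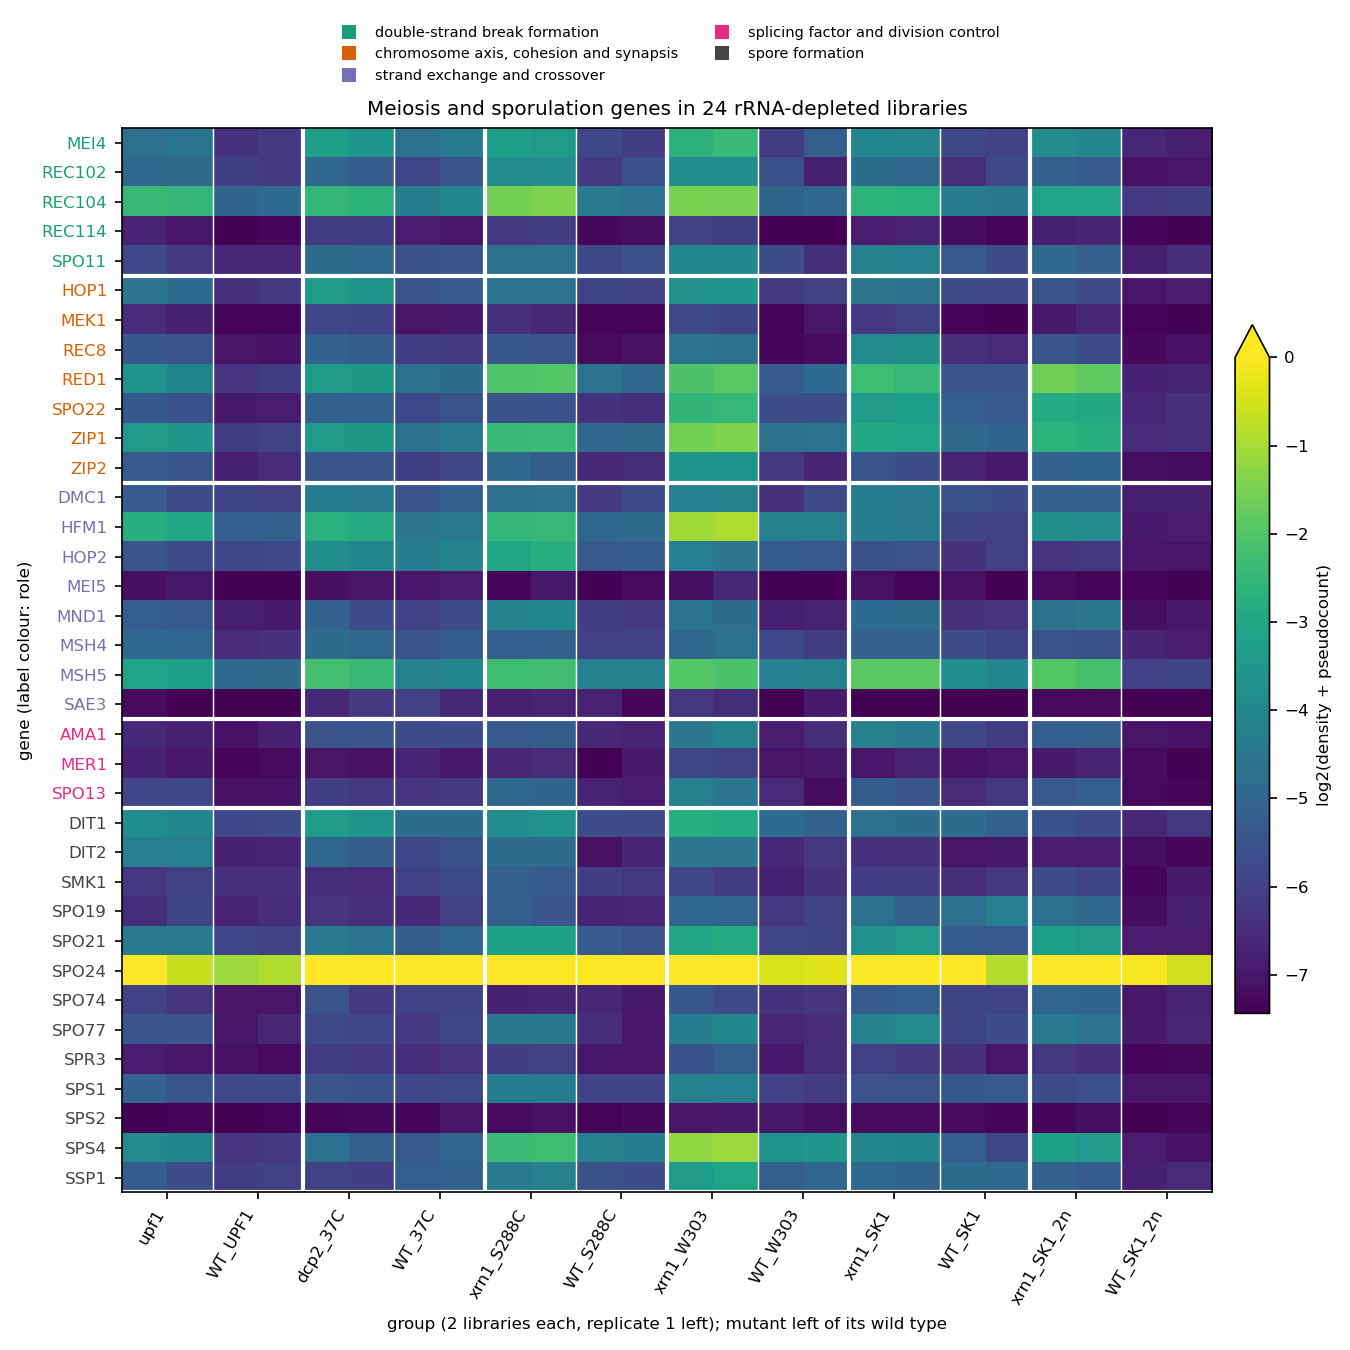
Deposited density of each of the 36 genes (rows, grouped by role) in each of the 24 rRNA-depleted libraries (columns, mutant left of its wild type), as a colour for log2 of the density plus the pseudocount, with values above 0 in the top colour. SPO24 has the highest mean density, 10.9, against a median of 0.0200 over the 36 genes, and MEI5 never exceeds 9 reads in a library.

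Most of the genes were higher without Upf1. Of the 34 genes tested 26 were higher in upf1Δ cells than in WT_UPF1 and 0 lower, while 47.0% of all mRNAs were higher and 0.521% lower (limma, Benjamini-Hochberg adjusted p under 0.05 over all features). The median log2 fold change was 1.28 for the 34 and 0.32 for all mRNAs. With libraries scaled to equal mRNA medians instead of equal snoRNA totals, 22 of 34 were higher (median 1.15) and 0 lower, against 22.7% of mRNAs higher and 52.7% lower (median -0.27).

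All 5 break-forming genes rose. REC104, a partner of Spo11, had 0.185 and 0.168 in upf1Δ cells, against 0.0238 and 0.0290 in WT_UPF1, a log2 fold change of 2.50 (SE 0.139, limma adjusted p = 5.13e-13). Both upf1Δ libraries lay far above both wild-type libraries. MEI4 rose by 1.67 and SPO11 itself by 0.61 (limma adjusted p = 0.0260), and the SPO11 call was lost under mRNA median scaling (0.33, adjusted p = 0.227).

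All 7 axis and synapsis genes rose as well, with a median of 1.60. ZIP1, which spans the gap between paired chromosomes, had 0.0866 and 0.0791 in upf1Δ cells, against 0.00863 and 0.00972 in WT_UPF1 (log2 fold change 2.57, SE 0.147, limma adjusted p = 8.54e-13). RED1, an axis protein, had 0.0746 and 0.0534 in upf1Δ cells, against 0.00701 and 0.00861 in WT_UPF1 (2.35, SE 0.177, limma adjusted p = 7.80e-11). Neither gene's groups overlapped, and ZIP1 showed the largest log2 fold change of all 34. That order depends on the pseudocount, which shrinks changes of lower genes more. By plain ratio of mean densities DIT2, MEK1 and REC8 rose more than ZIP1, from lower levels. MEK1 had 0.00487 and 0.00339 in upf1Δ cells, against 0.000243 and 0.000339 in WT_UPF1.

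The strand exchange genes divided. HFM1, the crossover helicase also known as MER3, had 0.141 and 0.124 in upf1Δ cells, against 0.0211 and 0.0222 in WT_UPF1 (2.33, SE 0.137, limma adjusted p = 1.25e-12). HFM1, MND1, MSH4 and MSH5 rose, 4 of 7. DMC1 had 0.0193 and 0.0136 in upf1Δ cells, against 0.0107 and 0.00969 in WT_UPF1 (0.47, limma adjusted p = 0.0567), and HOP2 had 0.0165 and 0.0130 against 0.0112 and 0.0124 in WT_UPF1 (0.22, adjusted p = 0.323). These 2 did not pass the test, nor did SAE3, which was at 0 in both WT_UPF1 libraries. Of the 3 splicing and division genes SPO13, which holds sister chromatids together in the first division, rose, and MER1 and AMA1 did not pass. Genes with an intron had 6 of 10 higher (median 0.86) and genes without one 20 of 24 (median 1.34), a split given with no test.

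Among spore formation genes 9 of 12 rose (median 0.97), or 6 of 12 under mRNA median scaling, and SMK1, SPO19 and the septin gene SPR3 did not pass. DIT2, an enzyme of the dityrosine layer of the spore wall, had 0.0469 and 0.0472 in upf1Δ cells, against 0.00345 and 0.00379 in WT_UPF1 (2.49, SE 0.193, limma adjusted p = 1.24e-10). Its neighbour DIT1, the first enzyme of the same layer, had 0.0660 and 0.0545 in upf1Δ cells, against 0.0114 and 0.0131 in WT_UPF1. Both groups were well separated for both genes.

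The wild type set against upf1Δ matters for size. WT_UPF1 and WT S288C are the same strain YAM1 in separate library sets, yet 13 of 34 genes were lower in WT_UPF1 than in WT S288C and 0 higher, beside 69.8% of mRNAs lower and 1.28% higher. Under mRNA median scaling 6 were lower and 4 higher (DIT1, DIT2, DMC1 and SPS1), beside 23.5% and 33.7%. Leaving out 1 library put the 13 between 7 (without WT S288C replicate 1) and 10, with 8 without either WT_UPF1 library. Against the 2 WT S288C libraries, a comparison chosen after seeing the data, 22 genes were higher in upf1Δ cells and 1, SPO24, was lower (median 0.87), beside 22.3% of mRNAs higher and 39.0% lower. DIT2 (2.65), REC104 (2.04), HFM1 (1.99), DIT1 (1.77) and REC8 (1.71) led that comparison.

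**Figure D2:**
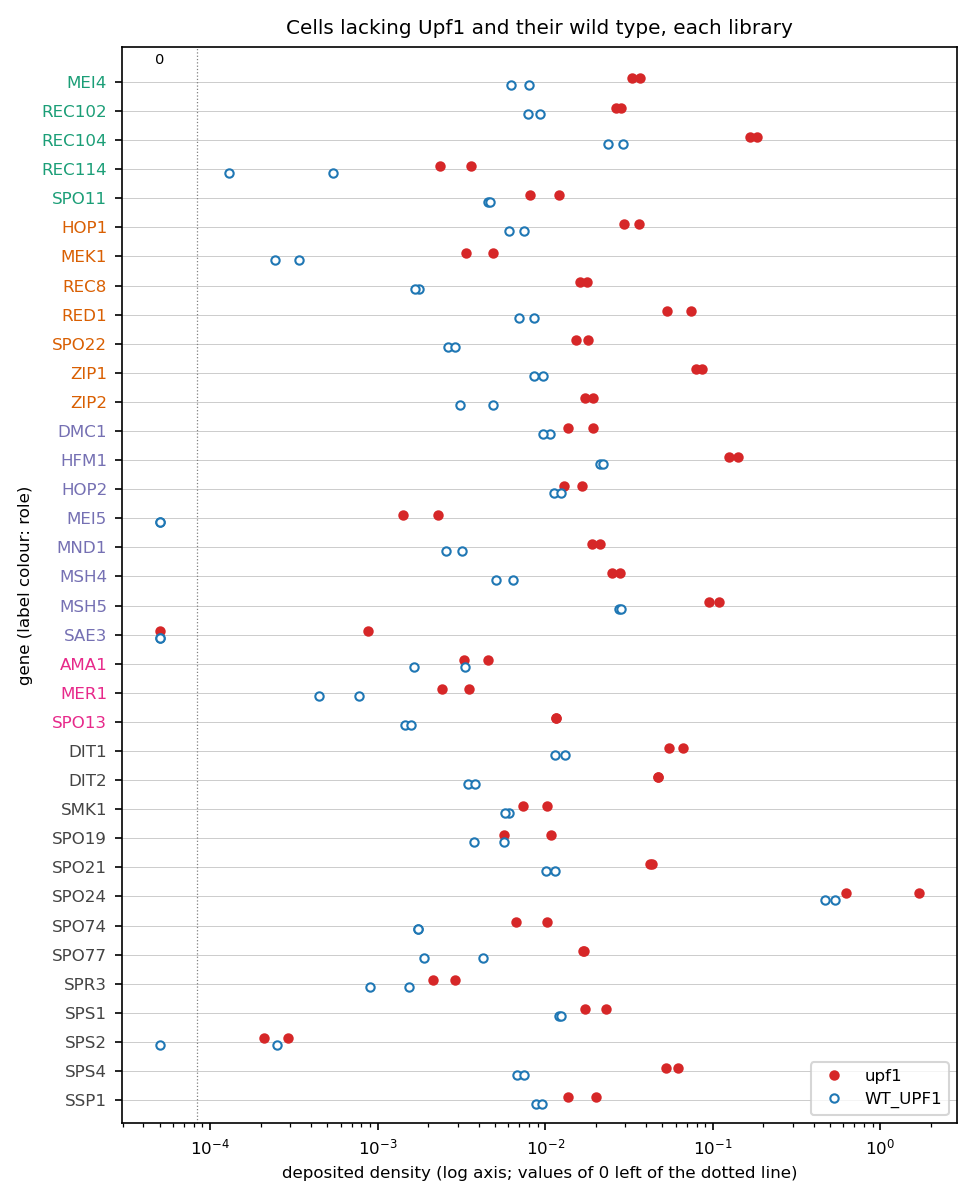
Deposited density (log axis, values of 0 left of the dotted line) of each of the 36 genes in the 2 upf1Δ libraries and the 2 WT_UPF1 libraries, 1 point per library. For most genes both upf1Δ points lie to the right of both wild-type points, with REC104 at 0.185 and 0.168 against 0.0238 and 0.0290, while SAE3, SPS2 and MEI5 have libraries at 0.

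Loss of Xrn1 raised nearly all of the genes together with nearly all other mRNAs. In S288C 32 of 34 genes were higher in xrn1Δ cells and 0 lower, beside 94.8% of mRNAs higher and 0.260% lower. In W303 34 of 34 were higher, beside 97.6% of mRNAs higher and 0.243% lower. In haploid SK1 27 of 34 were higher and 0 lower, beside 92.9% and 1.08%, and in SK1_2n 32 of 34 were higher and 0 lower, beside 97.2% and 0.399%. The median log2 fold changes of the genes were 1.68, 2.15, 1.23 and 1.81 in these 4 backgrounds, against 1.58, 1.97, 1.55 and 3.14 for all mRNAs. The pseudocount shrinks the medians of these low genes more than those of all mRNAs, most in SK1_2n. There the median density of the 36 genes was 0.0216 in xrn1Δ and 0.00214 in wild type. For all genes it was 0.928 and 0.0801, so the 2 SK1_2n medians are not compared as sizes of response. A share near that of all mRNAs is no result about these genes.

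Under mRNA median scaling the counts were 14 higher and 1 lower in S288C (28.9% and 43.4% of mRNAs), 16 and 3 in W303 (30.4% and 43.1%), 8 and 8 in haploid SK1 (32.3% and 42.9%), and 11 and 9 in SK1_2n (31.5% and 48.0%). HFM1, RED1, SPO24 and ZIP1 were the 4 genes called higher in all 4 backgrounds on that scale (11.8% of 34, against 14.1% of mRNAs). On the deposited scale it was 25 genes (73.5%, against 89.3% of mRNAs).

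REC104 had the largest log2 fold change of the recombination genes in S288C, with 0.332 and 0.362 in xrn1Δ cells against 0.0417 and 0.0351 in wild type (log2 fold change 3.00, SE 0.139, limma adjusted p = 6.35e-15). RED1 had 0.234 and 0.246 in xrn1Δ S288C cells, against 0.0356 and 0.0279 in wild type (2.72, SE 0.177, adjusted p = 1.48e-12). MEI4 had 0.0999 and 0.0898 in xrn1Δ S288C cells, against 0.0120 and 0.00888 in wild type (2.64). ZIP1 followed with 2.53, and none of these genes had overlapping groups. SPO74, a protein of the spindle plaque from which the spore membrane grows, had 0.00349 and 0.00402 in xrn1Δ S288C cells, against 0.00434 and 0.00226 in wild type (0.08, adjusted p = 0.729). SPO74 and SAE3 were the 2 genes that did not pass in S288C.

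In W303 HFM1 had 0.469 and 0.525 in xrn1Δ cells, against 0.0494 and 0.0488 in wild type (3.20, SE 0.137, limma adjusted p = 1.21e-15). REC104 (3.49), MEI4 (3.14) and SPO22 (3.13) rose by similar amounts, and SPO22 is the synapsis protein also called Zip4. In haploid SK1 RED1 and REC8 came after SPO24, which is described with its other values, RED1 with 0.196 and 0.171 in xrn1Δ cells against 0.0164 and 0.0172 in wild type (3.07, SE 0.177, adjusted p = 2.69e-13). REC8, the meiotic cohesin subunit, had 0.0628 and 0.0696 in xrn1Δ SK1 cells, against 0.00597 and 0.00507 in wild type (2.67). In haploid SK1, where 92.9% of mRNAs were higher, 7 of 7 axis and synapsis genes, 5 of 5 break-forming genes and 7 of 12 spore formation genes (median 0.58) were called higher. With mRNA medians set equal it was 5 of 7 (MEK1, REC8, RED1, SPO22 and ZIP1), 0 of 5 and 1 of 12, with 6 spore formation genes lower. The 7 genes that did not pass there were DIT1, MER1, SAE3, SMK1, SPO19, SPS1 and SSP1, of which 5 are spore formation genes.

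In SK1_2n RED1 had 0.319 and 0.276 in xrn1Δ/xrn1Δ cells, against 0.00344 and 0.00410 in wild type (4.99, SE 0.177, limma adjusted p = 6.75e-18). MSH5, which with Msh4 stabilises crossover intermediates, had 0.248 and 0.220 in the mutant, against 0.00974 and 0.0105 in wild type (3.91). Both genes' mutant libraries lay far above their wild-type libraries. The wild-type SK1_2n libraries were also low for most mRNAs on the deposited scale, with 94.2% lower than in wild-type SK1. They still held alpha-type RNAs, which limits every comparison with them as a diploid wild type.

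Differences between backgrounds in the xrn1Δ response were tested as interaction terms. The pseudocount holds down the responses that enter these terms, most where wild-type levels are lowest, as in SK1_2n. Between W303 and S288C 9 genes had a larger response in W303 and 1 a smaller one, beside 29.2% and 3.73% of mRNAs, and the 9 became 5 without xrn1Δ W303 replicate 2 and 4 under mRNA median scaling (9.46% of mRNAs). SPO22 had 0.163 and 0.173 in xrn1Δ W303 cells against 0.0142 and 0.0140 in wild-type W303, and 0.0150 and 0.0152 in xrn1Δ S288C cells against 0.00640 and 0.00545 in wild-type S288C. The xrn1Δ W303 libraries were high and the xrn1Δ S288C libraries low, and the responses differed by 2.29 (SE 0.228, limma adjusted p = 4.33e-07). HOP2, which guides Dmc1 to the right partner, went the other way (-1.48, SE 0.261, adjusted p = 0.000447), with 0.0473 and 0.0385 in xrn1Δ W303 cells against 0.0198 and 0.0185 in wild type, and 0.117 and 0.144 in xrn1Δ S288C cells against 0.0185 and 0.0199 in wild type. The HOP2 coordinates in the deposited table differ from those of R64.

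Between haploid SK1 and S288C 3 genes had a larger response in SK1 and 10 a smaller one, beside 13.5% and 18.6% of mRNAs. SPO24 (2.42), SPO22 (1.15) and REC8 (0.95) were the larger ones. The REC8 difference was 0.10 with 0.1 times the pseudocount (adjusted p = 0.898) and -0.18 by voom on recovered reads (adjusted p = 0.783). DIT1 had 0.0339 and 0.0307 in xrn1Δ SK1 cells against 0.0304 and 0.0236 in wild-type SK1, and 0.0666 and 0.0754 in xrn1Δ S288C cells against 0.0137 and 0.0133 in wild-type S288C (-1.77, SE 0.253, limma adjusted p = 7.36e-06). SPS1, a kinase of spore packaging, had 0.0158 and 0.0160 in xrn1Δ SK1 cells against 0.0174 and 0.0184 in wild-type SK1, and 0.0454 and 0.0447 in xrn1Δ S288C cells against 0.0104 and 0.0107 in wild-type S288C (-1.77, SE 0.235, adjusted p = 3.18e-06). In both genes the xrn1Δ SK1 libraries lay close to the wild-type SK1 libraries, whereas in S288C they lay well above. For SK1_2n against S288C 10 were larger and 3 smaller (median 0.25), beside 86.5% and 3.32% of mRNAs. That balance turned under mRNA median scaling, with 5 larger and 9 smaller (median -0.28), beside 27.2% and 36.7%, while voom gave 18 larger. For SK1_2n against haploid SK1 17 were larger and 2 smaller, REC8 and MEK1, beside 87.7% and 1.84%. The 17 became 10 under mRNA median scaling (21.4% of mRNAs) and 27 by voom, and the 2 became 0 by voom and with 0.1 times the pseudocount. REC8 had -1.05 there and turned to 0.14 by voom (adjusted p = 0.765). The MEK1 call was lost on leaving out any but 1 of the 8 libraries, wild-type and xrn1Δ alike, and 1 or 2 genes were then smaller.

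**Figure D3:**
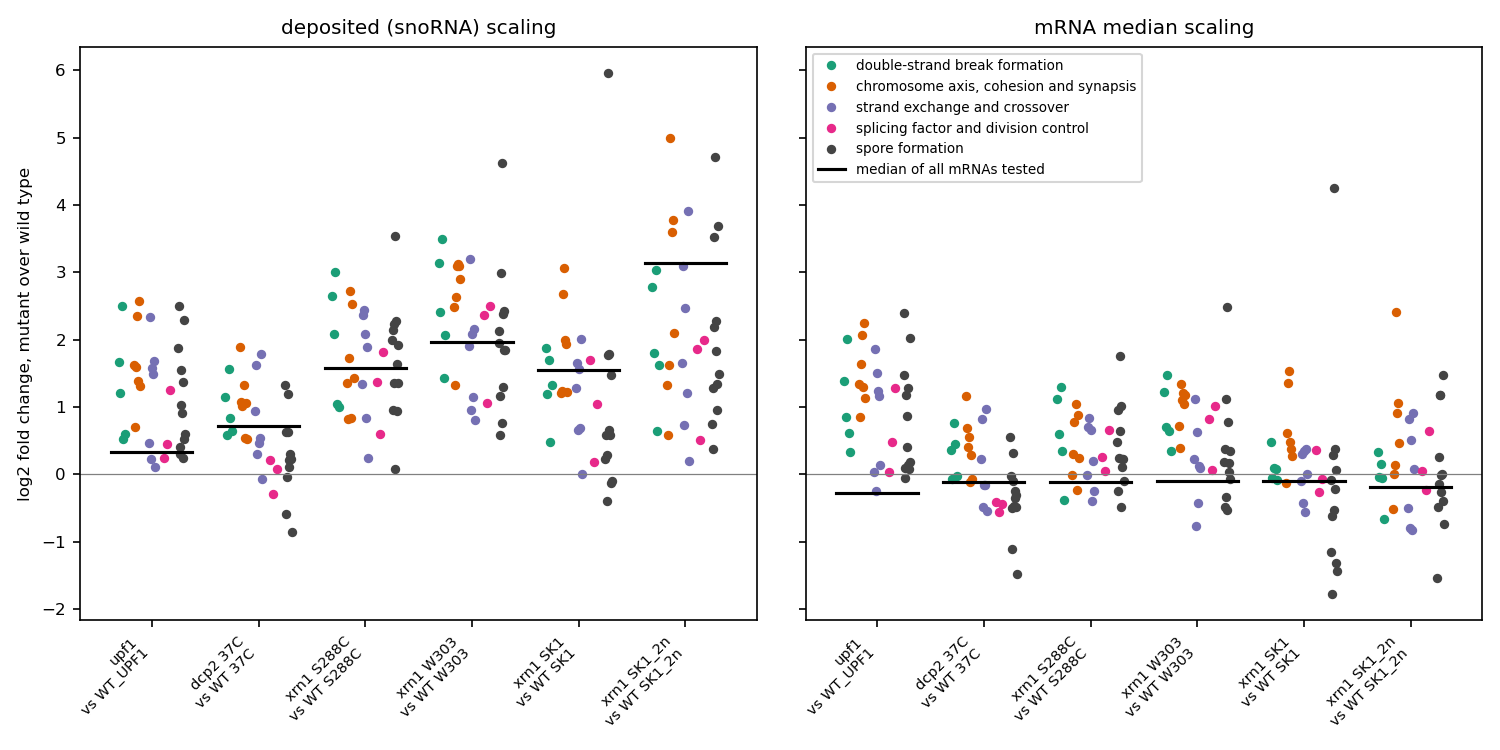
Log2 fold change, mutant over wild type, of each tested gene (points, coloured by role) in the 6 mutant comparisons, with the deposited scaling in 1 panel and mRNA median scaling in the other, and black lines at the medians of all mRNAs. In upf1Δ cells the medians of the genes are 1.28 and 1.15 under the deposited and the mRNA median scaling, and in xrn1Δ cells the second is 0.28 in S288C, 0.50 in W303, 0.03 in SK1 and 0.02 in SK1_2n.

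In dcp2-7 cells at 37 °C 20 of 34 genes were higher than in wild type at 37 °C and 2 lower, beside 80.2% of mRNAs higher and 1.55% lower. The median log2 fold change was 0.56 for the genes and 0.71 for all mRNAs. Under mRNA median scaling 10 were higher and 5 lower (23.4% and 39.7% of mRNAs), and the median of the genes was -0.09. Without wild-type 37C replicate 1 the number of higher genes was 13.

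Of the axis and synapsis genes 7 of 7 were higher (median 1.07), beside 80.2% of mRNAs, and 5 of 7 under mRNA median scaling, without SPO22 and ZIP2. HOP1, an axis protein that recruits the break machinery, had 0.0892 and 0.0749 in dcp2-7 cells, against 0.0163 and 0.0193 in wild type at 37 °C (1.90, SE 0.172, limma adjusted p = 2.05e-09). MSH5 had 0.211 and 0.179 in dcp2-7 cells, against 0.0492 and 0.0555 in wild type (1.79, SE 0.133, adjusted p = 9.54e-11). In both genes the dcp2-7 libraries lay above both wild-type libraries. HFM1 (1.62), REC104 (1.56) and RED1 (1.33) came next. Of the break-forming genes 4 of 5 rose, of the strand exchange genes 5 of 7, and of the splicing and division genes 0 of 3.

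Spore formation genes moved both ways in dcp2-7 cells, with 4 of 12 higher and 2 lower. SSP1, which shapes the leading edge of the growing spore membrane, had 0.00991 and 0.00896 in dcp2-7 cells, against 0.0210 and 0.0228 in wild type at 37 °C (-0.86, SE 0.182, limma adjusted p = 0.000195). SMK1, a MAP kinase of spore wall assembly, had 0.00567 and 0.00515 in dcp2-7 cells, against 0.00979 and 0.0126 in wild type (-0.60, SE 0.212, adjusted p = 0.0145). The dcp2-7 libraries were the low ones for both genes and the groups did not overlap. The SMK1 call was lost without wild-type 37C replicate 2 (-0.48, adjusted p = 0.0961) and without dcp2-7 replicate 2 (-0.56, adjusted p = 0.0574).

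Across upf1Δ, dcp2-7 and xrn1Δ S288C cells, each with its own wild-type libraries, 19 genes were higher in all 3 (55.9% of 34, against 42.7% of mRNAs). Under mRNA median scaling 6 were, namely DIT1, HFM1, REC104, REC8, RED1 and ZIP1 (17.6%, against 9.62% of mRNAs). No gene was lower in all 3 under either scaling.

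Wild-type libraries differed among themselves. In wild-type SK1_2n 27 of 34 genes were lower than in haploid wild-type SK1 and 0 higher, beside 94.2% of mRNAs lower and 0.747% higher. SPO19, a spore membrane protein, had 0.00112 and 0.00313 in wild-type SK1_2n, against 0.0320 and 0.0467 in wild-type SK1 (-2.51, SE 0.245, limma adjusted p = 2.66e-09). MSH5 had 0.00974 and 0.0105 in wild-type SK1_2n, against 0.0665 and 0.0557 in wild-type SK1 (-2.07), and SSP1 had 0.00322 and 0.00490 against 0.0298 and 0.0267 (-1.79). All of these genes had the SK1_2n libraries well below the haploid ones. With mRNA median scaling 15 genes were lower and 1 higher, beside 29.3% of mRNAs lower and 34.5% higher.

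In xrn1Δ SK1_2n against xrn1Δ SK1 12 genes were lower and 5 higher, beside 18.3% of mRNAs lower and 33.6% higher. Under mRNA median scaling 13 were lower and 3 higher, beside 38.7% and 24.4% of mRNAs. REC8 had 0.0168 and 0.0143 in xrn1Δ SK1_2n, against 0.0628 and 0.0696 in xrn1Δ SK1 (-1.76, SE 0.175, limma adjusted p = 4.68e-08), so the haploid libraries were the high ones. HOP1 was lower by the same test (-1.05, adjusted p = 3.93e-05). The 5 higher genes were SPS4 (0.73), RED1 (0.68), HFM1 (0.52), ZIP2 (0.52) and SPO22 (0.41). SPO24 was lower too (-1.31). Whichever library was left out, fewer genes passed in each direction, and the calls of ZIP2, SPO22 and SPO24 were lost. The SPO24 change then lay between -1.38 and -1.24.

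Between strains and library sets the wild types moved in both directions. In wild-type SK1 against wild-type S288C 9 genes were higher and 5 lower, beside 19.1% and 29.7% of mRNAs. SPO19 had 0.0320 and 0.0467 in wild-type SK1, against 0.00401 and 0.00418 in wild-type S288C (2.18, SE 0.245, limma adjusted p = 1.35e-07), and its libraries were well apart. SPO22 was also higher (1.13). SPO24 (-1.47), SPS4 (-1.28), HFM1 (-1.13), HOP2 (-0.91) and RED1 (-0.73) were lower, and the SPO24 call was lost without wild-type S288C replicate 1 (-1.16, adjusted p = 0.0764) and without wild-type SK1 replicate 2 (-0.89, adjusted p = 0.104). In wild-type W303 against wild-type S288C 5 genes were higher and 4 lower, beside 6.61% and 14.8% of mRNAs, 8 were higher under mRNA median scaling (17.2% of mRNAs), and leaving out any 1 library left 3 or 4 of the higher ones and 0 to 3 of the lower ones, with 0 lower without wild-type S288C replicate 1. Without 1 of the wild-type W303 libraries it was 2 each time. The 4 were SPO24 (-1.62), MND1 (-0.61), SPO21 (-0.51) and REC104 (-0.50). Strain and library set cannot be told apart in these comparisons.

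In wild type at 37 °C against wild-type S288C, 17 genes were higher and 1 lower, beside 10.7% of mRNAs higher and 16.6% lower. MEI4 had 0.0324 and 0.0434 in wild type at 37 °C, against 0.0120 and 0.00888 in wild-type S288C (1.43, SE 0.228, limma adjusted p = 7.16e-05). DIT2 (1.18), HOP2 (1.13) and REC8 (1.00) were the others past a log2 fold change of 1. SPS4 was the lower one (-0.93). These genes' libraries did not overlap between the groups. The 17 became 9 without wild-type 37C replicate 2, 10 without wild-type S288C replicate 1 and 9 without wild-type S288C replicate 2, and under mRNA median scaling 22 were higher, beside 19.3% of mRNAs. Temperature and library set cannot be told apart here.

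SPO24 had the highest level of the genes and the largest log2 fold change in xrn1Δ cells of S288C, W303 and haploid SK1. That order depends on the pseudocount, which hardly touches SPO24 and shrinks changes of the other genes. By plain ratio of mean densities REC8 rose more in S288C and W303, and MEK1 slightly more in S288C, both from few wild-type reads. REC114 was at 0 in both wild-type W303 libraries, so it has no ratio there. In S288C REC8 had 0.0177 and 0.0166 in xrn1Δ cells, against 0.000880 and 0.00148 in wild type. SPO24 had 26.7 and 27.2 in xrn1Δ S288C cells, against 2.86 and 1.86 in wild type (log2 fold change 3.54, SE 0.397, limma adjusted p = 8.78e-07). In haploid SK1 it had 51.9 and 52.2 in xrn1Δ cells, against 1.24 and 0.554 in wild type (5.96, SE 0.397, adjusted p = 2.84e-09). In W303 it had 17.6 and 19.8 against 0.730 and 0.766 in wild type (4.63), and in SK1_2n 22.0 and 20.0 against 0.929 and 0.683 (4.71). The xrn1Δ libraries were high in all 4 backgrounds, and the response in haploid SK1 exceeded that in S288C by 2.42 (SE 0.562, adjusted p = 0.00347).

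In dcp2-7 cells SPO24 had 4.43 and 3.91, against 1.79 and 1.86 in wild type at 37 °C (1.19, limma adjusted p = 0.0150). The call was lost under mRNA median scaling (0.32, adjusted p = 0.424), without wild-type 37C replicate 1 (1.16, adjusted p = 0.0534) and without dcp2-7 replicate 1 (1.10, adjusted p = 0.0668). In upf1Δ cells it had 1.70 and 0.627, against 0.467 and 0.539 in WT_UPF1, so 1 library was high and the other near the wild type (1.04, adjusted p = 0.0399). Without upf1Δ replicate 1 the change was 0.32 (adjusted p = 0.505), without either WT_UPF1 library the call was lost too (adjusted p = 0.164 and 0.0807), and under mRNA median scaling it was 0.41 (adjusted p = 0.283). The level of SPO24 over the 24 libraries was most like those of RED1, AMA1 and SPO77 (Pearson 0.908, 0.889 and 0.888 of log2 values), a description in which all genes share the libraries and their scaling.

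**Figure D4:**
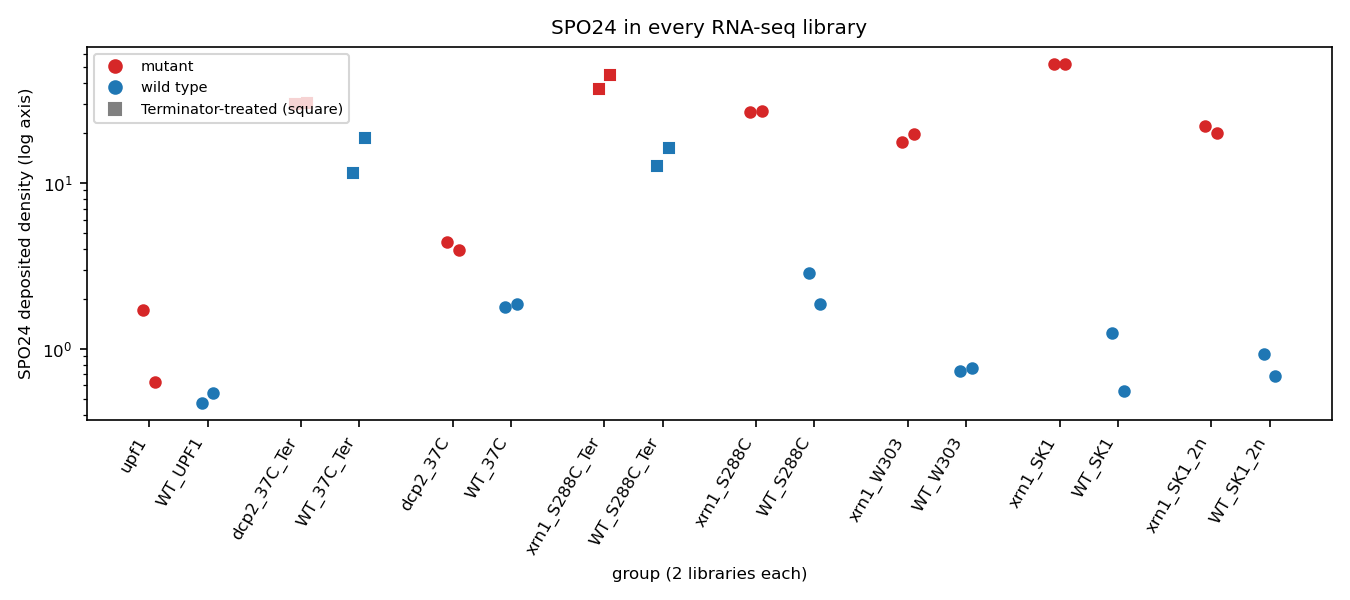
Deposited density of SPO24 (log axis) in each of the 32 RNA-seq libraries, 1 point per library, by group with the mutant left of its wild type and digested libraries (squares) left of undigested ones. The undigested xrn1Δ libraries lie between 17.6 and 52.2, the matching wild types between 0.554 and 2.86, and the 2 upf1Δ libraries lie apart at 1.70 and 0.627.

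Terminator digestion sorted RNAs by their 5' end. Comparing digested with undigested RNA of xrn1Δ S288C cells, 27 of 33 genes were lower after digestion and 1 higher, beside 88.4% of mRNAs lower and 1.78% higher. By mRNA median scaling 12 were lower and 2 higher, HOP2 and SPO24, beside 27.0% and 42.4%. On the deposited scale the median was -1.18 for the genes and -1.10 for all mRNAs, so the 2 medians were close. With mRNA medians set equal, a smaller share of the genes than of all mRNAs was higher. All of these values depend on the scaling, and whether snoRNA totals hold steady under digestion was not tested. SPS4 had 0.0328 and 0.0293 after digestion, against 0.193 and 0.195 before (-2.36, SE 0.231, limma adjusted p = 1.91e-10). ZIP1 had 0.0343 and 0.0426 after digestion, against 0.182 and 0.186 before (-2.05), and RED1 had 0.0547 and 0.0607 against 0.234 and 0.246 (-1.91). The digested libraries of these genes were all the low ones.

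In wild-type S288C 5 genes were lower after digestion (MSH5, REC104, RED1, REC102 and SPS4, from -0.49 to -0.66) and 1 higher, beside 15.6% and 11.1% of mRNAs. Leaving out any 1 of the 4 libraries left 1 or 2 of the 5 calls, and 2 genes were higher without digested replicate 1. The response to digestion was lower in xrn1Δ than in wild-type cells for 26 of 33 genes and higher for 0, beside 87.8% and 0.175% of mRNAs, led by MEI4 (-2.19), SPO24 (-2.04) and ZIP1 (-1.70). Once mRNA medians were set equal 5 were lower, MEI4, SPO24, SPO77, ZIP1 and ZIP2, beside 16.4% of mRNAs. In dcp2-7 cells and in wild type at 37 °C 1 gene was higher after digestion and 0 lower in each, beside 20.4% and 3.85% of mRNAs in dcp2-7 cells and 17.9% and 2.43% in wild type. Without digested wild-type 37C replicate 1 the number was 3, and without digested dcp2-7 replicate 2 it was 2. No gene had a response that differed between dcp2-7 cells and wild type at 37 °C, beside 0.0175% of mRNAs in each direction.

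The gene that was higher after digestion in each case was SPO24. In wild-type S288C it had 12.6 and 16.3 after digestion, against 2.86 and 1.86 before (2.63, SE 0.218, limma adjusted p = 3.06e-07). In dcp2-7 cells it had 30.1 and 30.3 after digestion, against 4.43 and 3.91 before (2.86), and in wild type at 37 °C 11.5 and 18.7 against 1.79 and 1.86 (3.00). Digested and undigested libraries were far apart. In xrn1Δ cells it had 37.0 and 44.7 after digestion, against 26.7 and 27.2 before (0.59, adjusted p = 0.0192), a call lost without undigested replicate 1 (0.58, adjusted p = 0.0619), undigested replicate 2 (0.61, adjusted p = 0.0508) or digested replicate 2 (0.46, adjusted p = 0.113).

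An lncRNA on the other strand is annotated across 21 of 36 genes (58.3%), against 1598 of 5798 genes (27.6%), and across at least 50% of the gene for 15 (41.7%), against 13.7%. These are 36 lncRNAs of the classes XUT (named for their sensitivity to Xrn1), SUT and CUT, with 9 genes facing 1 and 12 facing 2 or more. They rose in upf1Δ cells in 30 of 36 cases (median 1.79) beside 71.5% of all lncRNAs, in dcp2-7 cells in 30 of 36 beside 66.9%, and in xrn1Δ S288C cells in 33 of 36 (median 2.64) beside 93.3%. Since XUTs were chosen for their rise in xrn1Δ cells, their direction there is no independent result.

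The largest xrn1Δ S288C changes stood opposite the synapsis genes ZIP2 and SPO22. XUT1191, which covers all of ZIP2, had 0.336 and 0.321 in xrn1Δ S288C cells, against 0.0250 and 0.0299 in wild type (3.34, SE 0.174, limma adjusted p = 4.20e-14). It had 0.161 and 0.152 in upf1Δ cells, against 0.0248 and 0.0235 in WT_UPF1 (2.44), while ZIP2 had 0.0193 and 0.0173 against 0.00309 and 0.00490 (1.31, adjusted p = 2.93e-06). RNA of both strands was thus higher in upf1Δ cells.

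XUT0488, which covers all of SPO22, had 0.270 and 0.250 in upf1Δ cells, against 0.0435 and 0.0404 in WT_UPF1 (2.48, SE 0.160, limma adjusted p = 6.21e-12). SPO22 had 0.0179 and 0.0152 in upf1Δ cells, against 0.00264 and 0.00289 in WT_UPF1 (1.38, adjusted p = 9.97e-08). In xrn1Δ S288C cells XUT0488 had 0.549 and 0.540, against 0.0527 and 0.0523 in wild type (3.24), and SPO22 changed by 0.84. The other top pairs were SUT534 with ZIP2 (3.47), and SUT183 (3.28) and SUT184 (3.18) with SPO22. The lncRNAs at one gene overlap and share reads. In xrn1Δ S288C cells the 20 tested genes with an antisense lncRNA had a median of 1.39 and the 14 without one 1.90, while in upf1Δ cells the medians were 1.28 and 1.31, given with no test.

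CAGE placed few capped ends at the starts of these genes. The deposited lists hold 10183 positions in dcp2-7 and 9340 in wild type, pooled over replicates and with no height, so no test over replicates can be made. Within 50 nt of the start codon on the gene's strand 0 of 36 genes had a position in dcp2-7 and 1 of 36, REC104, in wild type, against 44.57% and 45.41% of all genes. From 200 nt upstream to the gene end 9 genes had one in dcp2-7 and 6 in wild type, against 77.18% and 76.32% of all genes. The positions lay mostly inside the genes, beyond 50 nt of the start codon, with 8 genes in dcp2-7 (22.22%, against 8.296% of all genes) and 4 in wild type (11.11%, against 7.813%). On the other strand inside the gene 10 genes (27.78%) had a position in dcp2-7 and 9 (25%) in wild type, against 10.26% and 7.537%.

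The windows show the capped base in capitals at SPO24, 75 nt before the start codon in both lists, at REC104, 7 nt before it in wild type, and at HOP2 and MSH5, where it lies 562 and 1672 nt into the gene in both lists.
SPO24, chr16:645861-645890, plus strand: aaatataaaaaatcAtcatcaaacaagcaa
REC104, chr8:412886-412915, plus strand: acatacagcaacttGgacaacatgtccatc
HOP2, chr7:436173-436202, plus strand: caaatgatgagattGtcaagcggataatgt
MSH5, chr4:179992-180021, plus strand: gagaagaaagactcAactcactgcttacaa

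**Figure D5:**
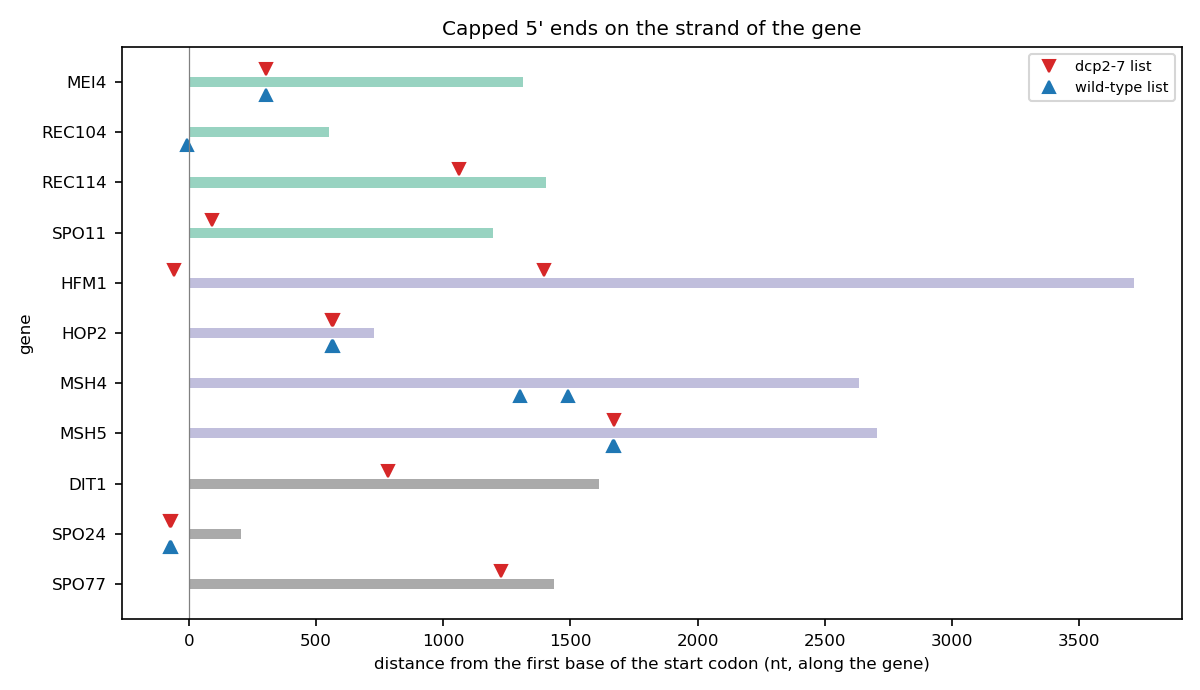
Position of each capped end on the gene's own strand relative to the first base of the start codon (nt along the gene), for genes with any, with dcp2-7 and wild type marked apart. REC104 at -7, HFM1 at -57 and SPO24 at -75 and -72 have positions just upstream of the start codon, and the other positions lie inside the genes.

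Of 47 other genes of meiosis 43 were tested. In upf1Δ cells 35 of 43 were higher (81.4%) and 0 lower, beside 47.0% of mRNAs higher, and scaling to equal mRNA medians gave 30 higher and 3 lower, beside 22.7% and 52.7%. In dcp2-7 cells 32 were higher (74.4%) and 3 lower, beside 80.2% of mRNAs higher, and in xrn1Δ S288C cells 43 and 0, beside 94.8%. Scaling to equal mRNA medians gave 17 higher and 9 lower in dcp2-7 cells, beside 23.4% and 39.7% of mRNAs. In xrn1Δ S288C cells it gave 24 and 3, beside 28.9% and 43.4%. On the deposited scale the dcp2-7 and xrn1Δ shares are near those of all mRNAs and are no result about genes of meiosis. With mRNA medians set equal, a larger share of these genes than of all mRNAs was higher, a difference that was not tested. ISC10, needed for spore formation, had 1.10 and 1.04 in upf1Δ cells, against 0.0814 and 0.102 in WT_UPF1 (3.48, SE 0.129, limma adjusted p = 1.68e-15). REC107, the Spo11 partner whose intron is spliced with Mer1, had 0.303 and 0.263 in upf1Δ cells, against 0.0301 and 0.0365 in WT_UPF1 (2.89, SE 0.151, adjusted p = 2.27e-13). SPR6 (2.31) and ADY4 (2.38) completed the 4 smallest adjusted p-values, and the groups of ISC10 and REC107 were far apart. NDJ1, a telomere protein of meiosis, had 2.44 and 1.83 in dcp2-7 cells, against 0.362 and 0.464 in wild type at 37 °C (2.35, adjusted p = 1.79e-12).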

How the data were processed

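The deposited RNA-seq table holds, per the file headers, a density for each feature and library, a signal scaled by the authors. Multiplied by feature length, 100% of values were whole multiples of a single unit (tolerance 0.01), and the sum over 77 snoRNAs was the same in every library. TopHat, cutadapt and Bowtie come from the submitters' processing notes, and their versions and the genome build were not given in the sources used here. CAGE positions were deposited as 1 list per genotype. Of 36 genes 35 have R64 coordinates, and sequences are RefSeq's.

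The log2 signal used a pseudocount equal to the 5th percentile of the values above 0 (0.00576637 for rRNA-depleted libraries, 0.0084084 in the model with Terminator libraries). It is close to or above many wild-type levels of these genes. Their log2 fold changes are therefore shrunk more than those of most mRNAs. A feature had to reach it in at least 2 libraries, which 9712 and 9615 did. limma 3.58.1 (R 4.3.3) ran with trend and robust options and 12 and 8 residual degrees of freedom. Two-sided p-values were Benjamini-Hochberg adjusted over all features, and calls needed an adjusted p under 0.05. Alternatives were voom on recovered reads, mRNA median scaling, 2 other pseudocounts, no filter, a replicate block, and each library left out. The fit was checked on simulated data, with changes planted only in features of a mean density above 0.05. Most of these genes lie below that (median 0.0200), so the check does not cover calls or shrinkage at their level.

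Genes named per comparison are the 5 largest rises and 3 largest falls with a call, a log2 change of at least 1 and groups that do not overlap, plus genes against the majority, up to 3 each way for differences between responses, and SPO24. Others were chosen after their values were seen. The 36 genes and all lists were chosen with earlier results of these data known. Titles of the samples place the Terminator columns that name no background in S288C. Tables were made in Python 3.11.15 (pandas 2.3.3, numpy 2.4.6) and figures with matplotlib 3.10.9.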

Additional observations from a re-analysis of the deposited data

Results flagged for a closer look

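The results below are tested differences between responses (limma interaction terms, adjusted p under 0.05), as log2 values, the first named response minus the second. For the xrn1Δ response of W303 minus S288C they were SPO22 at 2.29, ZIP2 at 1.47, HOP1 at 1.13 and HOP2 at -1.48. For SK1 minus S288C they were SPO24 at 2.42, SPO22 at 1.15, REC8 at 0.95, HOP2 at -1.78, DIT1 at -1.77 and SPS1 at -1.77, and REC8 turned to -0.18 by voom (adjusted p = 0.783).

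For SK1_2n minus S288C they were SPO22 at 2.76, RED1 at 2.27, MSH5 at 2.02, DIT2 at -1.77, HOP2 at -1.72 and DIT1 at -1.25. For SK1_2n minus SK1 they were SPO19 at 2.58, SPS4 at 2.20, RED1 at 1.92, REC8 at -1.05 and MEK1 at -0.65. REC8 turned to 0.14 by voom (adjusted p = 0.765). The MEK1 call was lost on leaving out 7 of the 8 libraries, one at a time. For the Terminator response of xrn1Δ minus wild-type S288C cells they were MEI4 at -2.19, SPO24 at -2.04 and ZIP1 at -1.70.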

How the results depend on the processing

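Values are numbers of the tested genes called, unless a log2 value is named, and the cause of a change was not tested unless the setting itself removes libraries. Dropping the filter moved none of the 44 counts. mRNA median scaling moved 27 of 44 by over 1.5 times. Under it the higher and lower counts were 14 and 1 for xrn1Δ in S288C, 16 and 3 in W303, 8 and 8 in SK1, 11 and 9 in SK1_2n, and 10 and 5 for dcp2-7, whose median turned to -0.088. They were 1 and 15 for wild-type SK1_2n against SK1, 4 and 6 for WT_UPF1 against wild-type S288C, and 5 and 9 for the xrn1Δ response of SK1_2n minus S288C, whose median turned to -0.28. Higher counts were 3 for xrn1Δ SK1_2n against xrn1Δ SK1, 8 for wild-type W303 against S288C, 4 for the response of W303 minus S288C, and 10 for SK1_2n minus SK1. Terminator counts were 3 higher and 8 lower in wild-type S288C, beside 32.2% and 26.5% of mRNAs. In xrn1Δ they were 2 and 12, beside 42.4% and 27.0%. Lower Terminator counts were 2 in wild type at 37 °C, beside 21.2% of mRNAs. They were 3 in dcp2-7 and 5 for the difference between xrn1Δ and wild type. SPO24 in wild-type SK1_2n against SK1 turned to a log2 value of 1.51 (limma adjusted p = 0.0012). Among 101 named values this scaling lost 4 calls.

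With the 25th percentile as pseudocount, lower counts were 1 for xrn1Δ SK1, 2 for wild-type W303, 7 for WT_UPF1, 16 for the response of SK1 minus S288C, 7 for SK1_2n minus S288C, 1 for SK1_2n minus SK1 and 2 for Terminator in wild type, and higher counts were 11 for wild type at 37 °C, 15 for W303 minus S288C, and 2 each for Terminator in wild type at 37 °C and in dcp2-7. With 0.1 times the pseudocount dcp2-7 had 1 lower, xrn1Δ SK1_2n against xrn1Δ SK1 had 3 higher, and SK1_2n minus SK1 had 0 lower. Voom gave 1 lower for wild-type W303, 18 higher for SK1_2n minus S288C, 27 higher and 0 lower for SK1_2n minus SK1, and 2 higher for Terminator in wild type at 37 °C and in dcp2-7. By voom REC8 turned to -0.18 in SK1 minus S288C (adjusted p = 0.783) and to 0.14 in SK1_2n minus SK1 (adjusted p = 0.765). Against the WT S288C libraries, chosen after seeing the data, upf1Δ had 1 lower gene, SPO24, at -1.15 (limma adjusted p = 0.0214).

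Replicate numbers are shared between groups, with deviations of same-numbered libraries correlated between -0.14 and 0.247 and only 2 pairs per comparison. With the replicate number as a block 43 of 44 counts stayed within 1.5 times, Terminator in wild type at 37 °C had 2 higher, and 98 of 101 named values kept their call or lack of one. In the 3 comparisons with correlations of -0.13, -0.124 and -0.14 the crossed pairing moved 0 of 6 counts.

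Leaving out 1 library moved 37 of 224 counts. The higher and lower counts ranged from 13 to 20 and from 1 to 2 for dcp2-7, were 3 and 7 to 8 for xrn1Δ SK1_2n against xrn1Δ SK1, and 3 to 4 and 0 to 3 for wild-type W303. Lower counts ranged from 7 to 10 for WT_UPF1 and from 1 to 2 for SK1_2n minus SK1, and higher ones from 9 to 16 for wild type at 37 °C and from 5 to 9 for W303 minus S288C. For Terminator the higher and lower counts were each 1 to 2 in wild type, and higher counts were 0 to 1 in xrn1Δ, 1 to 2 in dcp2-7 and 1 to 3 in wild type at 37 °C, whose median lay between -0.062 and 0.22. Calls were lost in 42 of 516 such values of named genes. A CAGE window of 100 nt held 3 genes in dcp2-7 and 2 in wild type, and from 200 nt upstream to the gene end it was 9 and 6.

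Depth limits the genes read at a few reads per library, such as MEI5, SAE3 and SPS2. With 2 libraries a group, a single library can decide a call. No label names a meiotic culture, and 1 value per gene leaves spliced and unspliced RNA together.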
